A study of Mus musculus with 21 samples.

Results

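RNA counts of mouse liver were compared between 2 groups of wild-type mice: 8 livers taken after 16 weeks on CDA-HFD and 5 livers taken after 8 weeks on normal chow. These 13 livers are all samples of both groups in a series of 21 livers, whose remaining 8 were taken at 8 weeks of CDA-HFD. CDA-HFD is high in fat, lacks choline and supplies defined amino acids, and is fed to mice to model steatohepatitis with fibrosis. The comparison asks which genes differ in the liver late on this diet, across the whole transcriptome. The chow livers carry the time point week 0, and no chow livers stand beside the 16-week livers, so diet, age and time in the experiment cannot be told apart. The labels name no strain, sex, age, batch or pairing, and replicate numbers below follow the order of the listing. Nothing in the labels says how the livers were sampled, so p-values measure the spread between these samples.

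Hepatocytes make bile acids, plasma proteins and lipoproteins, and export triglyceride in particles whose phosphatidylcholine needs choline. When fat and injury persist, monocyte-derived macrophages gather around dying, lipid-filled hepatocytes, and stellate cells turn into collagen-producing myofibroblasts. Ductular cells, which line the small bile ducts, multiply in the same setting. In bulk tissue, fewer cells of a type and less RNA per cell cannot be told apart, nor can more cells and more RNA per cell.

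Total counts ran from 33522456 to 42586342 per chow liver and from 35254088 to 48901145 per 16-week liver, and 20264 to 23505 genes had at least 1 count. Levels are CPM, counts scaled to a common library size after TMM scaling, given as mean ± SD over 5 chow and 8 16-week livers. They are not corrected for gene length. The hepatocyte marker Alb, serum albumin, was at 98537 ± 18064 and 73888 ± 9749.8 CPM on chow and at 16 weeks, so the labelled tissue is borne out in both groups.

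Some livers stood apart in transcripts of other tissues. The summed level of 14 squamous epithelium transcripts was 0.548 to 0.948 CPM on chow, 280.3, 90.1 and 173 CPM in 16-week replicates 1, 4 and 7, and 8.75 to 25.2 CPM in the other 5. Only 8 of the 14 could be tested, and Krt6a, Krt14, Krt15, Dsg3, Trp63 and Ivl, defining markers among them, were too low. The summed level of 14 muscle transcripts was 0.807 to 14.9 CPM in 4 chow livers and 430.2 CPM in chow replicate 5. At 16 weeks it was 439, 434 and 253 CPM in replicates 1, 4 and 7 and 8.5 to 39.2 CPM in the others. The same 3 livers were the highest of their group in the sum of male-biased liver genes, with 7719, 8085 and 9384 CPM against 3171 to 5418 CPM in the others. They were the lowest in the ductular marker Epcam, at 13.2, 16.4 and 18.9 CPM against 32.8 to 55.8 CPM. Without chow replicate 5, 13 rather than 2 of the 13 muscle transcripts tested were called higher. For genes named by rule, log2 changes that moved by over 1.5 times without these 3 livers are given both ways below.

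**Figure D1:**
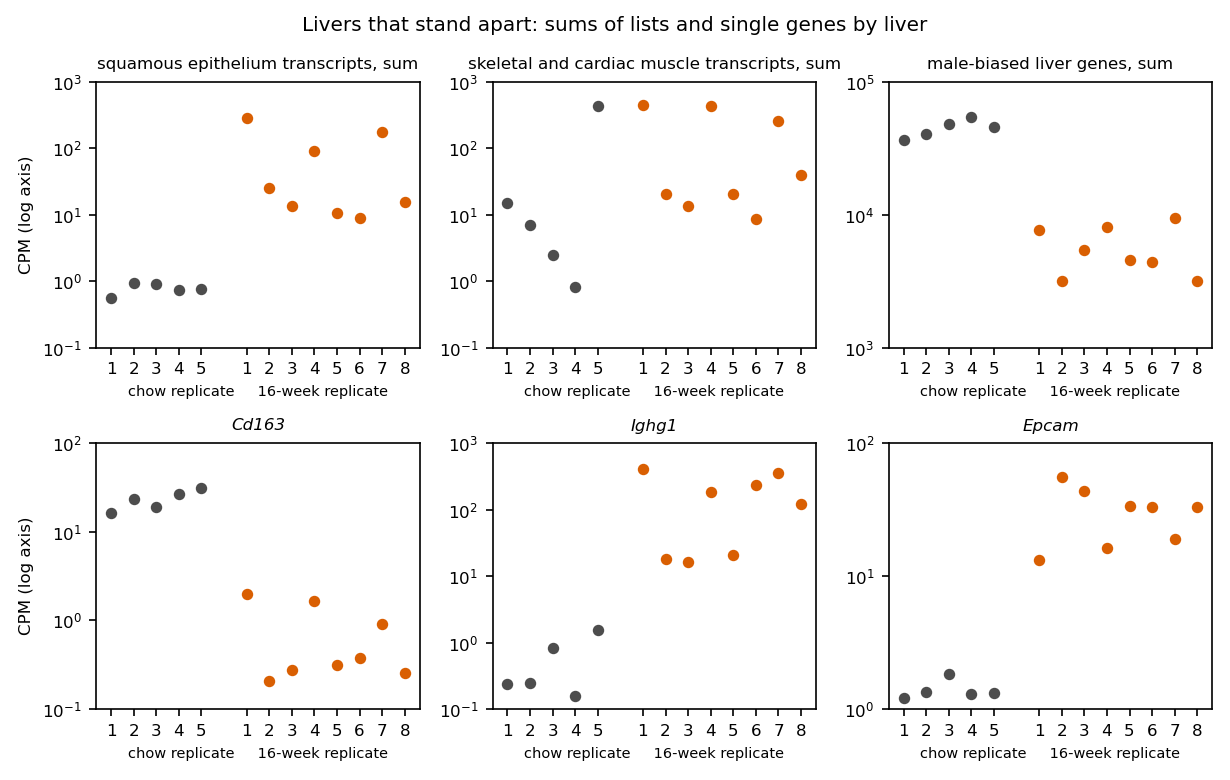
Summed CPM of 3 gene lists and CPM of 3 genes in each of the 13 livers, on log axes, with chow livers in grey and 16-week livers in orange. Replicates 1, 4 and 7 of the 16-week group lie above the other 5 in squamous, muscle and male-biased transcripts and in Cd163 and below them in Epcam, and chow replicate 5 lies at 430.2 CPM in muscle transcripts.

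Of 16779 genes tested, 11849 (70.6%) were called at an edgeR adjusted p under 0.05, with 5999 (35.8%) higher and 5850 (34.9%) lower at 16 weeks. These shares are the background against which every gene group below is read, with the limit for abundant genes given below. The median log2 change over all genes tested was 0.00. Rises were the larger changes: 3767 called genes (22.5%) were at least 2-fold higher and 1448 (8.63%) at least 2-fold lower. At 64-fold or more, 80 genes rose and 16 fell, and 1727 rose and 212 fell by 4-fold to below 16-fold. In 8634 genes (51.5%) the 13 livers did not overlap between the groups, 4513 (26.9%) with every 16-week liver higher and 4121 (24.6%) with every 16-week liver lower.

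Of 9 fat tissue transcripts 6 could be tested, and Fabp4, a fatty acid carrier of fat cells and macrophages, and Cidec, a lipid droplet protein, rose from 11.7 ± 4.16 to 35.1 ± 11.5 CPM and from 7.15 ± 4.91 to 36.6 ± 23.8 CPM. Adipoq, Plin1, Cfd and Retn were not called and Lep, Ucp1 and Adig were too low to be tested. The summed level of fat transcripts was 13.5 to 55.9 CPM on chow and 48 to 155 CPM at 16 weeks, highest in 16-week replicate 2. Gut epithelium transcripts rose in all 3 that could be tested of 11 listed, and 11 of the 13 exocrine pancreas transcripts were too low to be tested. Of 6 red blood cell transcripts tested 3 fell, or 6 without 16-week replicate 3, and their summed level was 308 to 442 CPM on chow and 93.1 to 222 CPM at 16 weeks. The part of fat, gut or blood in the results was not tested.

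Direction went with abundance. Among 130 genes with a mean above 1000 CPM, 102 fell and 8 rose (median log2 change -0.87). At 100 to 1000 CPM 1007 of 1426 fell, and 834 were lower without overlap. The shares over all genes are thus too low a background for falls among abundant genes. Among 3152 genes below 1 CPM, 1569 rose and 438 fell (median 0.75). In all, 109 genes went from under 0.1 CPM on chow to at least 1 CPM at 16 weeks, and 10 went the other way. The number of genes at 1 CPM or more was 12805 ± 159 on chow and 13784 ± 64 at 16 weeks, and the 20 most abundant genes held 23.3% ± 0.766 and 21.2% ± 1.2 of the counts. Both measures differed between the groups (exact permutation tests over 13 livers, two-sided, adjusted p = 0.00311 and 0.00414 over 4 measures).

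This shift in composition sets the scale of every change. TMM factors were 0.757 to 0.819 on chow and 1.09 to 1.24 at 16 weeks. With total counts alone the median of all genes moved up by 0.55 on the log2 scale, and 85% rather than 50.6% of the called genes were higher. Of the genes called both ways, 7896 kept their direction and 999 changed it. Changes below are relative to the TMM scale, and group medians that change sign on total counts are given both ways. 16-week livers also varied more among themselves: over 9540 genes of at least 5 CPM in both groups, the median coefficient of variation (SD as a percent of the mean) was 8.46% on chow and 12.8% at 16 weeks. Pearson's r of log2 levels between livers was 0.988 to 0.994 within chow, 0.975 to 0.996 within 16 weeks and 0.897 to 0.952 between the groups, as a description.

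**Figure D2:**
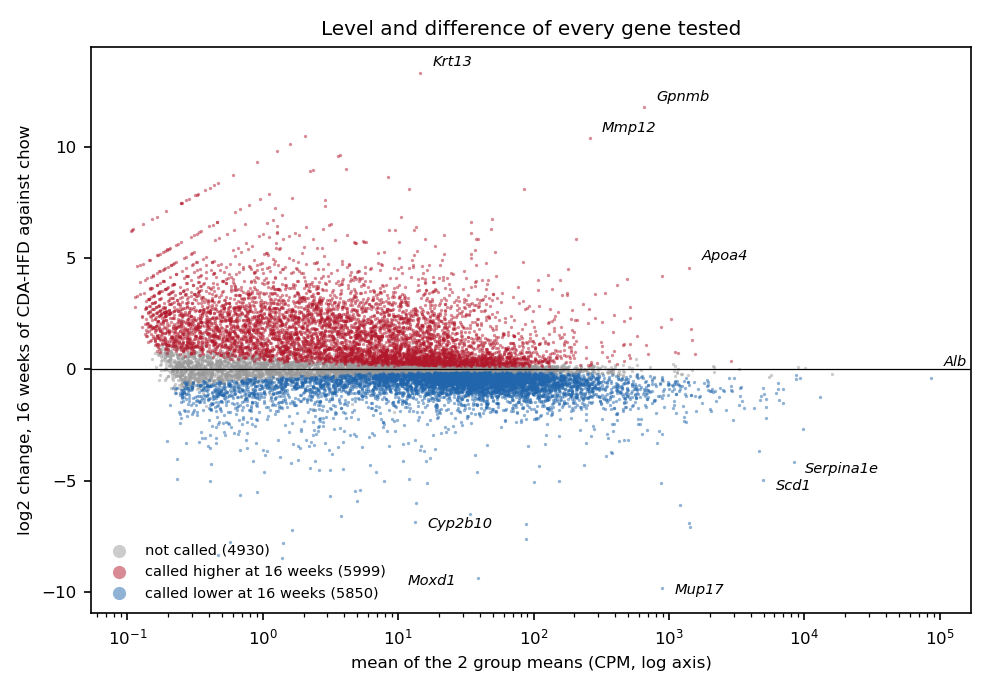
Each point is 1 of the 16779 genes tested, with the mean of the 2 group means in CPM on a log axis and the log2 change on the vertical axis. Called genes are red (5999 higher) and blue (5850 lower), and falls take up most of the abundant end, where Alb, Serpina1e and Scd1 are marked.

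Among genes without overlap between the groups, the largest rises were in macrophage, matrix-degrading, squamous and immunoglobulin genes. Gpnmb, a membrane glycoprotein of lipid-laden macrophages, was at 0.743, 0.306, 0.434, 0.186 and 0.235 CPM in the 5 chow livers and at 892 to 2219.5 CPM (median 1129) at 16 weeks (log2 change 11.78, SE 0.40, edgeR adjusted p = 6.86e-11). Mmp12, the macrophage elastase, went from 0.43, 0.428, 0.289, 0.186 and 0.588 CPM to 352 to 732 CPM (median 526) (log2 change 10.37, SE 0.29, adjusted p = 8.52e-12). Every 16-week liver was far above every chow liver in both genes. Krt13, a keratin of squamous epithelium, had 0 counts in the 5 chow livers and 117, 4.58, 3.04, 34.2, 1.95, 0.79, 69.8 and 2.56 CPM in 16-week replicates 1 to 8, at least 1481-fold higher against a floor of 3 counts over the chow group. Its level was high in replicates 1, 4 and 7, the livers with the most squamous and muscle transcripts, and the part of other tissue in it was not tested. Without them its fitted log2 change, which depends on the prior count where a group is at 0, was 9.72 instead of 13.32.

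Of the other large rises, Vsig8, Vmn2r3 and Sprr1a were each highest in a liver other than replicates 1, 4 and 7. Ighv10-3, Cyp2b9, Ighg1 and Sult1e1 were each highest in 1 of those 3 livers. Vsig8, an immunoglobulin-domain membrane protein, had 1 count on chow and 2.96 to 11.6 CPM (median 7.76) at 16 weeks (pooled ratio 1106, 95% counting interval 198.3 to 43697). Vmn2r3, annotated as a vomeronasal receptor, also had 1 count on chow and 3.34 to 15.3 CPM (median 5.43) at 16 weeks (pooled ratio 1133, interval 203.1 to 44752). Both intervals cover counting error only, and the log2 changes of 9.62 and 9.58 became 11.40 and 11.33 without the 1 chow liver that held the count, fitted against 0 counts. Sprr1a, a cornified envelope protein, went from 0.0782, 0.0306, 0, 0 and 0.0294 CPM to 3.46 to 11.8 CPM (median 4.76), highest in replicate 2, or by a log2 change of 8.27 instead of 7.62 without chow replicate 1. Mmp7, an epithelial matrix metalloproteinase, rose from 0.088 ± 0.0563 to 24.1 ± 13.9 CPM (adjusted p = 2.92e-07), with 4.88, 39.7, 41.1, 8.85, 30.3, 29.9, 12.2 and 25.9 CPM in 16-week replicates 1 to 8. It was lowest in replicates 1, 4 and 7, all of them above chow. Gdf3, a TGF-beta family ligand, rose from 0.0326 ± 0.0337 to 5.71 ± 1.52 CPM, and Sult1e1, an oestrogen sulfotransferase, lowest in 16-week replicates 2 and 8, from 0.182 ± 0.0706 to 20.7 ± 11.7 CPM. Cyp2b9, a cytochrome P450 that is higher in female mouse liver, rose from 0.0397 ± 0.0299 to 16.7 ± 6.52 CPM (log2 change 8.63), and its reads may be shared with related Cyp2b genes.

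By gain in counts, the leading genes were Apoa4, Lyz2, Psap, Ctsd, Gpnmb, Ctsb, Ly6e and Spp1. Apoa4, an apolipoprotein of chylomicrons and very low density lipoprotein, was at 86.4, 149, 125, 91.7 and 127 CPM on chow and at 1187 to 7700 CPM (median 1549) at 16 weeks, with replicate 2 highest. Lyz2, the lysozyme of myeloid cells, rose from 93 ± 26.3 to 1672 ± 332 CPM, and Ly6e, an interferon-inducible surface protein, from 365 ± 88.1 to 1378 ± 175 CPM. Psap, the precursor of the saposins that help break down sphingolipids, rose from 645 ± 24.5 to 2265 ± 358 CPM, and the cathepsins Ctsd and Ctsb, lysosomal proteases, rose from 359 ± 7.5 to 1704 ± 342 CPM and from 850.4 ± 77.9 to 2114 ± 303 CPM.

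The largest falls were in male-biased genes, cytochromes P450 and the major urinary proteins, pheromone carriers that the liver secretes. Mup17 was at 110.2, 1346, 2473, 2665 and 2270.3 CPM in the chow livers and at 0.219 to 5.94 CPM (median 1.28) at 16 weeks (log2 change -9.81, SE 0.88, adjusted p = 1.65e-07), or lower by a log2 change of -11.22 without replicates 1, 4 and 7. Moxd1, a monooxygenase-like gene, was at 8.06, 11.8, 106, 143 and 122 CPM on chow and at 0.0198 to 0.336 CPM (median 0.0833) at 16 weeks (log2 change -9.40, SE 0.79, adjusted p = 8.67e-08). Chow replicate 1 in Mup17, and chow replicates 1 and 2 in Moxd1, were far below the other chow livers and still above every 16-week liver. Mup7, Mup11, Mup16, Mup9 and Mup18 fell by log2 changes of -7.11, -6.91, -6.94, -6.50 and -6.01. Without replicates 1, 4 and 7 these became -10.06, -8.99, -8.18, -7.27 and -7.03. Genes of this family are near-identical, so the split of reads between them is uncertain. Cyp2b10, a drug-inducible cytochrome, fell from 26.3 ± 6.59 to 0.221 ± 0.244 CPM, and Cyp2c29 fell from 2368 ± 141 to 34.4 ± 12.3 CPM with chow livers at 2139.9, 2368, 2476, 2365 and 2493 CPM. Slc13a2, a citrate and dicarboxylate transporter, fell from 9.7 ± 5.25 to 0.159 ± 0.0664 CPM. Serpina4-ps1, a serpin pseudogene, fell from 176 ± 117 to 0.884 ± 0.597 CPM, and Dct, dopachrome tautomerase of pigment cells, from 7.42 ± 3.34 to 0.0763 ± 0.0839 CPM. Without replicates 1, 4 and 7 their log2 changes were -8.31 and -7.25 instead of -7.62 and -6.58. By loss in counts the leading genes were Alb, Serpina1e, Serpina3k, mt-Cytb, Scd1, Mup3, Cyp3a11 and mt-Nd2. Serpina1e, an alpha-1 antitrypsin of the mouse cluster, fell from 15918 ± 2432 to 875 ± 749 CPM, with 1274, 1620 and 2232 CPM in replicates 1, 4 and 7 and 186 to 649 CPM in the others. Its log2 change of -4.19 was -5.43 without replicates 1, 4 and 7, and that of Mup3 was -3.69 and -4.49. Alb was at 117230, 108850, 82957, 107900 and 75752 CPM on chow and at 61231 to 88551 CPM (median 73555) at 16 weeks (log2 difference -0.42, adjusted p = 0.0169), with overlapping groups, and on total counts its difference was 0.13.

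Promoters are shown for the 2 largest rises and the 2 largest falls, the genes at both ends of this comparison. Each is the 250 bases before the gene's start in RefSeq on GRCm38.p6, read 5′ to 3′ on the gene's strand: Krt13 at chr11:100121567-100121816 (minus strand), Gpnmb at chr6:49036268-49036517 (plus strand), Mup17 at chr4:61595833-61596082 (minus strand), Moxd1 at chr10:24223267-24223516 (plus strand). Capitals mark matches to the motifs searched, and no match was found in the Gpnmb window.

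Krt13: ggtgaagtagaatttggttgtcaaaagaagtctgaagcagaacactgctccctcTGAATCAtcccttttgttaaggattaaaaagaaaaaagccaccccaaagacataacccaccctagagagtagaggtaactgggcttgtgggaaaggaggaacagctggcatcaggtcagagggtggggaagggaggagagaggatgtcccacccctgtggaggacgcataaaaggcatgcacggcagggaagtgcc
Gpnmb: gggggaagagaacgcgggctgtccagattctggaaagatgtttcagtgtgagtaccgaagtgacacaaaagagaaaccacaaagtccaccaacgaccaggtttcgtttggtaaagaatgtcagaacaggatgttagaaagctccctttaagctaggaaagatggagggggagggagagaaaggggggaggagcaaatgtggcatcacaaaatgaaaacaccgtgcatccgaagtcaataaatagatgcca
Mup17: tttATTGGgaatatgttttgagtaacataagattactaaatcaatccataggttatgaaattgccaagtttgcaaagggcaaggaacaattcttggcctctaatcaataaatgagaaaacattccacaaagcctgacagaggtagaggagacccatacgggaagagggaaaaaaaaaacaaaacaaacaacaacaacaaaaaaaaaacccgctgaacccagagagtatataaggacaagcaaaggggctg
Moxd1: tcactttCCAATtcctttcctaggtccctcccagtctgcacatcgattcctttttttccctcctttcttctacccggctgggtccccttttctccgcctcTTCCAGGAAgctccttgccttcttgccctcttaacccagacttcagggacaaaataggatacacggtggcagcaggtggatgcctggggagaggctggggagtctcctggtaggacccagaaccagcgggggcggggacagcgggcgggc

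The motifs were the CACGTG E-box, the AP-1 element TGANTCA, the CCAAT box CCAAT, the TATA box TATAAA, the STAT element TTCNNNGAA and the amino acid response element TGATGNAA, each on both strands, and their matches were not checked for overlap with one another. The Krt13 window held an AP-1 element at -196, the Mup17 window a CCAAT box at -247, and the Moxd1 window a CCAAT box at -243 and a STAT element at -150, counted from the gene's start. A CCAAT box was found in 34.5% of all 27025 promoters of the table, an AP-1 element in 6.87%, and a STAT element in 7.18%. Among tested genes with a promoter in the table, the TATA box was found in 16.1% of 161 called genes at least 4-fold lower, 10.3% of 1444 at least 4-fold higher and 6.62% of 3279 not called, against 13% of all promoters. The E-box was found in 2.48%, 6.93% and 8.75% of the same promoters, or 4, 100 and 287 of them. A match is a string of letters and says nothing of binding.

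The 59 gene lists of liver biology ordered themselves from lipid-associated macrophage genes at the top to male-biased genes at the bottom. Medians ran from 3.77 to -3.11 on the log2 scale. Lists of abundant genes have a higher background of falls than 34.9%: 70.6% of genes at 100 to 1000 CPM and 78.5% above 1000 CPM were called lower. With the 8-week livers also in the fit, called falls went from 5 to 3 among crosslinking enzymes and Notch and hedgehog genes, from 3 to 1 among B and plasma cell genes and Hippo-YAP targets, and from 2 to 1 among chemokines and quiescent stellate cell genes. Called falls of female-biased genes went from 4 to 1 when genes below a mean of 1 CPM were left out, and called rises of pericentral genes from 5 to 8 without 16-week replicate 2.

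**Figure D3:**
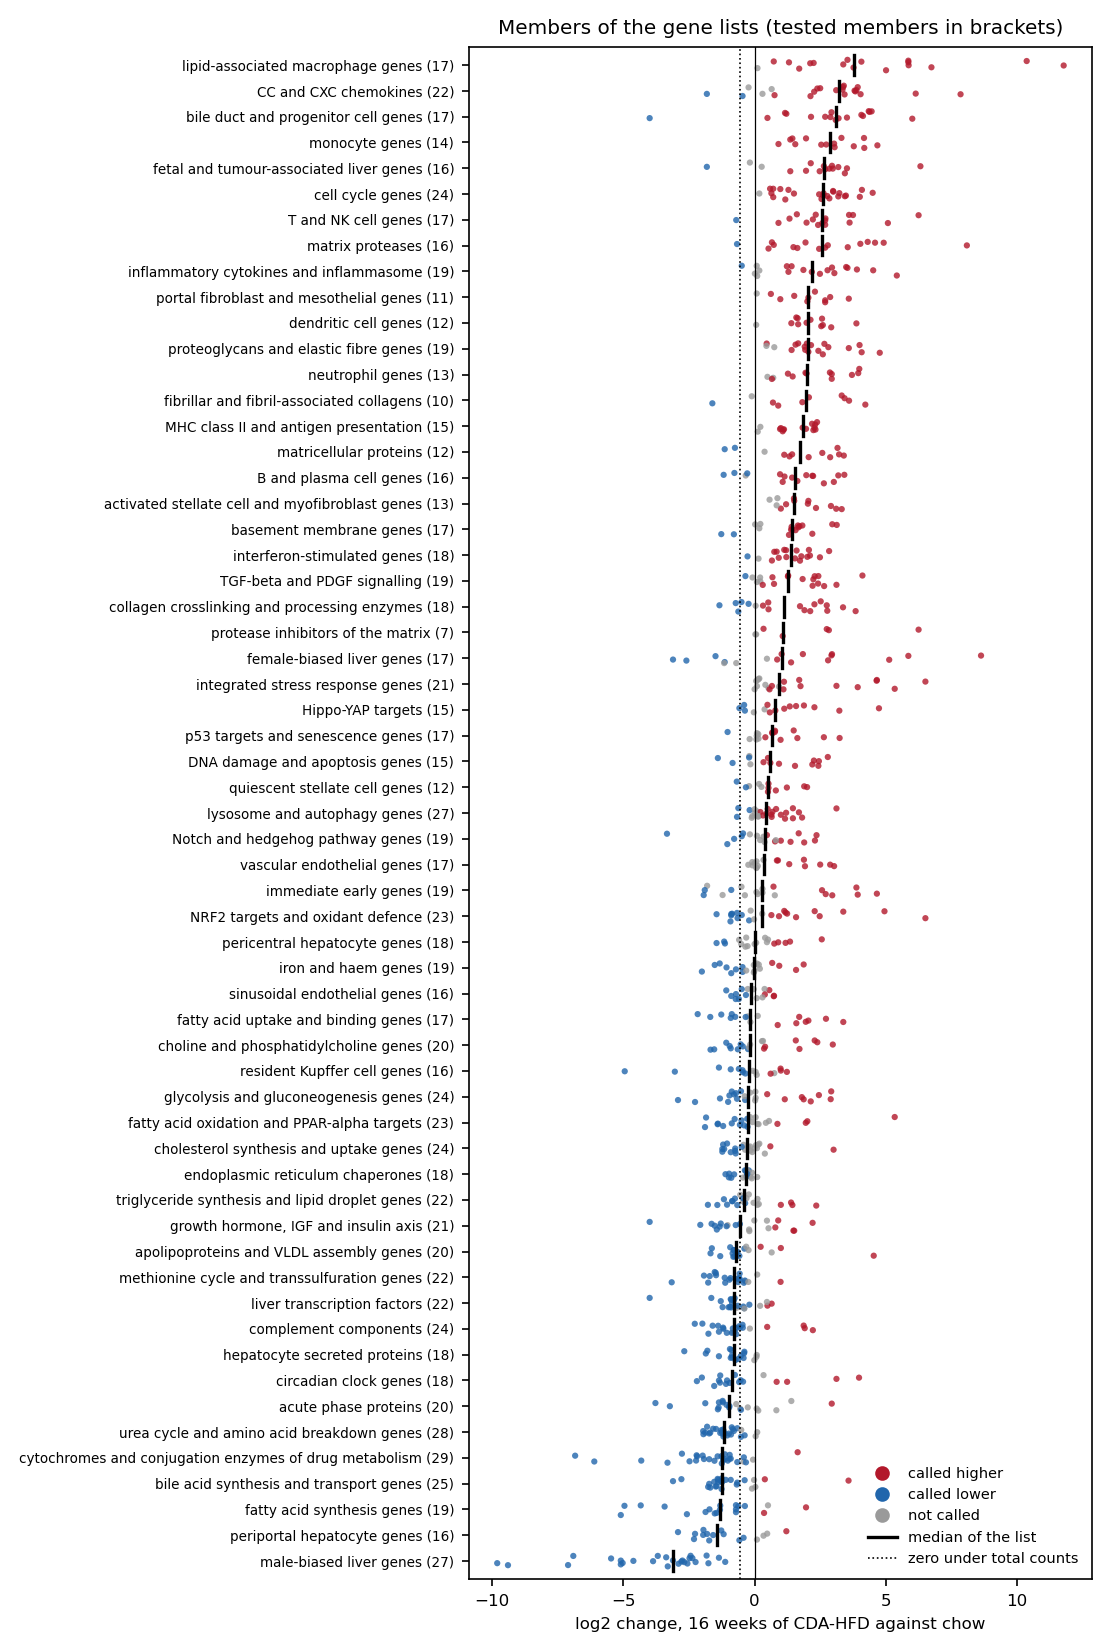
Log2 change of each tested member of 59 gene lists, ordered by median (black bar), with called members in red and blue and the others in grey. The dotted line marks where zero would lie on total counts, and lists with medians between the lines change sign with the scaling.

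Matrix genes were higher at 16 weeks in most of their classes. Of 10 fibrillar and fibril-associated collagens tested, 8 rose and 1 fell, with a median log2 change of 1.94 (35.8% and 34.9% of all genes tested rose and fell). Col1a1, a chain of type I collagen, was at 10.9, 10.3, 15.7, 10.2 and 17.6 CPM in the chow livers and at 172 to 372 CPM (median 231) at 16 weeks (log2 change 4.22, SE 0.24, edgeR adjusted p = 2.17e-09), and Col1a2, its partner chain, rose from 20.8 ± 4.58 to 252 ± 58.1 CPM. Col3a1, of type III collagen, rose from 56.7 ± 13.2 to 612 ± 119 CPM (log2 change 3.43). All 3 were higher in every 16-week liver than in any chow liver. The exception by direction was Col27a1, a cartilage-type fibrillar collagen, which fell from 53.7 ± 15 to 17.6 ± 3.26 CPM. Basement membrane genes rose in 12 of 17 tested and fell in 2 (median 1.44): Col4a5, a chain of type IV collagen, rose from 1.93 ± 0.562 to 15 ± 5.72 CPM, while the nidogen Nid2 fell from 25.5 ± 2.15 to 10.5 ± 2.14 CPM. Enzymes that crosslink and process collagen rose in 12 of 18 tested and fell in 5, led by Lox (0.715 ± 0.214 to 10.3 ± 1.73 CPM) and Loxl1 (2.71 ± 1.07 to 28.2 ± 7.94 CPM), both lysyl oxidases.

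Of 16 proteases 15 rose and 1, Mmp19, fell (median 2.57), and Ctsk, the collagen-degrading cathepsin, rose from 0.808 ± 0.264 to 24.6 ± 11.2 CPM. Timp1, which blocks metalloproteinases, was at 0.352, 0.183, 0.326, 0.031 and 0.235 CPM on chow and at 11 to 28.2 CPM (median 15.7) at 16 weeks (log2 change 6.25, SE 0.38, adjusted p = 3.77e-09), and Timp2 rose from 22.9 ± 6.55 to 163 ± 33.3 CPM. Of 7 matrix protease inhibitors tested 5 rose and 2, Serpine2 and A2m, were not called (median 1.07). Proteoglycan and elastic fibre genes rose in 17 of 19 tested and fell in none (median 2.05), with Mfap2, a microfibril protein, from 0.177 ± 0.11 to 4.79 ± 2.32 CPM, Ltbp2 from 2.21 ± 0.586 to 37.7 ± 11.4 CPM and elastin (Eln) from 4.64 ± 1.32 to 55.8 ± 16 CPM. Matricellular proteins rose in 9 of 12 cases, among them Tnc, tenascin C (1.83 ± 0.477 to 19.4 ± 3.64 CPM), and Smoc2 (8.54 ± 1.83 to 76.4 ± 16.9 CPM). Fibronectin (Fn1) and vitronectin (Vtn), which hepatocytes also secrete into plasma, were the 2 that fell, Fn1 from 1998 ± 316 to 906 ± 207 CPM and Vtn from 3609 ± 389 to 2142 ± 303 CPM.

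Of 13 genes of activated stellate cells and myofibroblasts 10 rose, 9 of them without overlap, and none fell (median 1.51). Their summed level was 266 CPM in chow replicate 5, the chow liver with the most muscle transcripts, and 95.7 to 155 CPM in the other chow livers. The part of muscle in this list was not tested. Acta2, smooth muscle actin, was at 8.49, 5.38, 11.9, 5.09 and 13.3 CPM on chow and at 15.3 to 42.4 CPM (median 24.4) at 16 weeks, and the lowest 16-week liver was only just above the highest chow liver (log2 change 1.50, adjusted p = 0.000215). Vim, vimentin, rose from 29.6 ± 8.14 to 296 ± 55.8 CPM, and S100a6 from 3.32 ± 1.7 to 28.8 ± 9.08 CPM. Of 12 genes of quiescent stellate cells 7 rose and 2 fell (median 0.52), and 4 were higher without overlap, near the 26.9% over all genes. The difference between the stellate lists was not tested. Hand2, a transcription factor of these cells, rose from 3.55 ± 0.9 to 13.1 ± 3.21 CPM, while Lrat, which esterifies retinol, was at 32.6 ± 7.38 and 28.1 ± 10.9 CPM. TGF-beta and PDGF signalling genes rose in 14 of 19 tested and fell in 1 (median 1.28). The ligand Tgfb1 was at 9.74, 9.23, 13.4, 11.2 and 12.4 CPM on chow and at 33.5 to 48.7 CPM (median 37) at 16 weeks (log2 change 1.83), and Itgb6, an integrin chain that activates latent TGF-beta, rose from 0.154 ± 0.0664 to 2.76 ± 0.884 CPM. Pdgfb, a ligand of the PDGF receptor, rose from 2.33 ± 1.12 to 20.1 ± 4.97 CPM. Portal fibroblast and mesothelial genes rose in 10 of 11 cases (median 2.05), against 35.8% of all genes. Of these genes, Krt19, Cd34, Eln and Thy1 are also counted with other cell types or matrix genes. Msln and Upk3b rose with overlapping groups (log2 changes 0.98 and 0.62) and Lrrn4 was not called, while Wt1 and Gpm6a rose without overlap (2.69 and 1.51).

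Genes of lipid-associated macrophages had the largest median of the 59 lists. Of 17 lipid-associated macrophage genes 16 rose, each with no overlap between the groups (background 26.9%), and Plin2, the lipid droplet coat protein of all fat-storing cells, was at 692 ± 91.5 and 744 ± 152 CPM and was not called. Trem2, a lipid receptor of macrophages, was at 0.782, 0.825, 1.09, 0.465 and 1.41 CPM on chow and at 54.5 to 134 CPM (median 94.2) at 16 weeks (log2 change 6.74, SE 0.32, adjusted p = 6.15e-10). Spp1, osteopontin, which ductular cells make as well, rose from 54.5 ± 14.4 to 918 ± 356 CPM, and its 3 lowest 16-week values, 423, 570 and 619 CPM, were in replicates 1, 4 and 7. Atp6v0d2, a proton pump subunit of phagocytes, rose from 1.36 ± 0.999 to 76.5 ± 16.8 CPM, and Lpl, lipoprotein lipase, from 49.8 ± 9.17 to 519.9 ± 135 CPM. All 14 monocyte genes rose (median 2.88): Cx3cr1, the fractalkine receptor, was at 1.02, 1.44, 2.24, 0.838 and 2.12 CPM on chow and at 26.9 to 48.2 CPM (median 39) at 16 weeks. Chil3, a chitinase-like protein, rose from 0.286 ± 0.306 to 5.25 ± 2.89 CPM, by a log2 change of 4.18 or 4.90 without chow replicate 5.

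Genes of resident Kupffer cells did not move as one. Of 16 genes 4 rose, 8 fell and 4 were not called, with a median of -0.21 on the TMM scale and 0.32 on total counts. In a fit that also held the 8-week livers only 4 were called lower. Timd4, a receptor for dying cells on embryo-derived Kupffer cells, was at 9.15, 10, 11.4, 11.6 and 12.1 CPM on chow and at 0.663 to 2.52 CPM (median 1.29) at 16 weeks (log2 change -3.04, SE 0.27, adjusted p = 1.68e-07). Cd163, the haemoglobin scavenger receptor, was at 16.2, 23.4, 19.1, 26.5 and 31 CPM on chow and at 0.205 to 1.96 CPM (median 0.344) at 16 weeks (log2 change -4.95), with its 3 highest 16-week values in replicates 1, 4 and 7 and a log2 change of -6.37 without them. Clec4f, a lectin of Kupffer cells, was at 128, 135, 141, 148 and 173 CPM on chow and at 54.8 to 156 CPM (median 87.7) at 16 weeks, with overlapping groups. Its log2 difference of -0.60 was called (adjusted p = 0.0189) but not with the 8-week livers in the fit (adjusted p = 0.101) or on total counts (-0.07, adjusted p = 0.736). The group contained rises as well: Cd5l, a secreted macrophage protein, went from 122 ± 13.6 to 243 ± 58 CPM, and Spic, a factor of iron-recycling macrophages, from 1.28 ± 0.142 to 3 ± 0.61 CPM, while Vsig4 was at 38.2 ± 4.63 and 39.4 ± 8.38 CPM and not called.

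Neutrophil genes rose in 11 of 13 cases (median 1.98), and 6 were called when genes below a mean of 1 CPM were left out. Lcn2, lipocalin 2, which injured hepatocytes also make, was at 10.7, 4.49, 56.6, 3.23 and 190.0 CPM on chow and at 285 to 553 CPM (median 396) at 16 weeks (log2 change 2.94, adjusted p = 0.00482, or 4.44 without chow replicate 5). Ngp, a neutrophil granule protein, rose from 0.0854 ± 0.0864 to 1.15 ± 0.562 CPM. Dendritic cell genes rose in 11 of 12 cases (median 2.05), with the chemokine Ccl22 from 0.431 ± 0.228 to 6.46 ± 1.1 CPM and the receptor Flt3 from 0.534 ± 0.204 to 4.02 ± 0.708 CPM.

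T and NK cell genes rose in 16 of 17 tested and fell in 1 (median 2.58), and 10 were called higher when genes below a mean of 1 CPM were left out. Cd8a, the co-receptor of cytotoxic T cells, was at 0.548, 0.153, 0.398, 0.0931 and 0.529 CPM on chow and at 1.64 to 10.8 CPM (median 3.9) at 16 weeks (log2 change 3.75, SE 0.52, adjusted p = 1.29e-05), with no overlap and with replicate 6 highest. Gzmk, a granzyme, had 2 counts on chow, both in replicate 5, and 0.374 to 3.56 CPM (median 0.747) at 16 weeks (pooled ratio 90.9, 95% counting interval 25 to 752.5). The 1 gene that fell was Cd4, the co-receptor of helper T cells, from 4.93 ± 1.4 to 3.04 ± 1.17 CPM, with overlapping groups, and it was not called without replicates 1, 4 and 7, without chow replicate 4 or on total counts. Of 16 B and plasma cell genes 12 rose and 3 fell, but the livers overlapped between the groups in all but 1 of the rises. Igkc, the kappa light chain constant gene, was at 12.6, 6.85, 51.8, 11 and 69.3 CPM on chow and at 58.4 to 697 CPM (median 319) at 16 weeks, so that chow replicate 5 exceeded the lowest 16-week liver. Its log2 change of 3.42 (adjusted p = 0.000969) was 2.74 without replicates 1, 4 and 7. Iglc1 rose from 1.96 ± 2.35 to 18.2 ± 19.6 CPM by a log2 change of 3.19, which was 1.95 without those 3 livers and 4.30 without chow replicate 5. Ighg1, a constant gene of IgG, was at 0.235, 0.245, 0.832, 0.155 and 1.53 CPM on chow and at 403, 17.9, 16.5, 181, 20.8, 233, 353 and 119 CPM in 16-week replicates 1 to 8 with replicates 2, 3 and 5 lowest. Its log2 change of 8.09 was 7.03 without replicates 1, 4 and 7 and 8.86 without chow replicate 5. Across the annotation 59 of 69 immunoglobulin V genes and 5 of 5 T cell receptor C genes tested rose, and reads may be shared among V genes.

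Chemokines rose in 17 of 22 tested and fell in 2 (median 3.23). Ccl2, which draws monocytes, was at 0.9, 0.642, 1.41, 1.18 and 2.26 CPM on chow and at 9.78 to 17.7 CPM (median 13.3) at 16 weeks (log2 change 3.40). Cxcl5, a neutrophil attractant, was counted on chow only in replicate 5 and ran at 1.87 to 5.51 CPM (median 3.41) at 16 weeks, with a log2 change of 6.14, or 10.24 without that liver, fitted against 0 counts. Cx3cl1, the ligand of Cx3cr1, rose from 1.59 ± 0.427 to 26.3 ± 7.56 CPM, while Cxcl12, the stromal chemokine, fell from 557 ± 52.2 to 404 ± 26.2 CPM and Cxcl13, which draws B cells, from 4.29 ± 1.93 to 1.21 ± 0.678 CPM. The fall of Cxcl12, by a log2 change of -0.46, is within the shift between the scalings. Cytokine and inflammasome genes rose in 14 of 19 cases, led by Lif (0.0565 ± 0.0688 to 2.64 ± 1.12 CPM, log2 change 5.42, or 6.54 without chow replicate 5) and Tnf (0.206 ± 0.0697 to 4.86 ± 0.657 CPM). Il1b was at 7.47 ± 1.86 and 7.94 ± 1.13 CPM and not called. Interferon-stimulated genes rose in 16 of 18 cases, the same number without overlap (median 1.37), with the antiviral synthetase Oas1a from 1.93 ± 0.628 to 13.9 ± 3.3 CPM. MHC class II and antigen presentation genes rose in 13 of 15 tested and fell in none, H2-Eb1 from 46.1 ± 9.21 to 240.3 ± 53.8 CPM and H2-DMb1 from 4.67 ± 0.489 to 23.3 ± 5.26 CPM.

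Inflammatory proteins of the hepatocyte were mostly called lower. Acute phase genes fell in 12 of 20 tested and rose in 1, Lcn2 (median -0.96, or -0.44 on total counts). Without chow replicate 5, 4 were called higher. Saa1, serum amyloid A, was at 106, 39.7, 1230.5, 31.8 and 2453 CPM on chow and at 47.7 to 165 CPM (median 78) at 16 weeks: chow replicates 3 and 5 were above every 16-week liver and chow replicates 2 and 4 below them. Its log2 change of -3.23 (adjusted p = 0.00267) was -2.09 without chow replicate 5, and that of Saa2 was -3.78 and -2.45. The fibrinogen chains Fga, Fgb and Fgg fell without overlap, Fgb from 7539 ± 1840 to 2937 ± 557 CPM. Complement genes fell in 18 of 24 cases, with Mbl2, mannose-binding lectin, from 405 ± 41.4 to 83.6 ± 21 CPM and the terminal component C8b from 659 ± 78.4 to 166 ± 59.6 CPM, and rose in 4. Those that rose were the 3 C1q chains, which macrophages make, and Cfp, properdin, of myeloid cells: C1qb went from 73.4 ± 11.7 to 342 ± 77.1 CPM (log2 change 2.22).

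Bile duct and progenitor cell genes rose in 16 of 17 cases (median 3.09). Epcam, an adhesion molecule of ductular cells, was at 1.21, 1.35, 1.85, 1.3 and 1.32 CPM on chow and at 13.2 to 55.8 CPM (median 33) at 16 weeks (log2 change 4.46, SE 0.38, adjusted p = 1.06e-07). Cldn4, a tight junction claudin, was at 0.0391, 0.183, 0.145, 0.155 and 0.0882 CPM on chow and at 3.57 to 16.4 CPM (median 8.47) at 16 weeks, lowest in replicates 1, 4 and 7 as Epcam was. Cd24a, a surface glycoprotein of progenitors, rose from 2.88 ± 0.884 to 33.1 ± 10.7 CPM, and the duct keratins Krt7 and Krt19 from 0.968 ± 0.309 to 8.2 ± 3.07 CPM and from 2.46 ± 1.08 to 15.9 ± 5.45 CPM. Onecut1, a hepatocyte and duct transcription factor, was the 1 that fell, from 29.9, 5.81, 27.4, 73 and 26.7 CPM on chow to 0.448 to 5.08 CPM (median 1.56) (adjusted p = 1.14e-05). Fetal and tumour-associated genes rose in 13 of 16 cases: Afp, alpha-fetoprotein, was at 1.21, 0.948, 0.76, 0.59 and 0.764 CPM on chow and at 4.91 to 7.62 CPM (median 5.87) at 16 weeks (log2 change 2.85), and Ly6d, a surface antigen, rose from 1.18 ± 0.609 to 95.5 ± 51.5 CPM. H19 and Igf2, imprinted genes of fetal liver, were called higher with overlapping groups, H19 from 8.77 ± 17.5 to 70 ± 83.1 CPM. Hippo-YAP targets rose in 10 of 15 cases (median 0.79), with Ankrd1, a muscle and YAP-induced ankyrin protein, from 0.305 ± 0.153 to 8.29 ± 3.11 CPM and Birc5, survivin, from 0.931 ± 0.321 to 8.81 ± 3.38 CPM. Notch and hedgehog genes rose in 8 and fell in 5 of 19 cases, close to the background. Hey1, a Notch target, rose from 0.599 ± 0.373 to 3.06 ± 0.418 CPM, Gli1, a hedgehog target, rose from 0.162 ± 0.054 to 0.791 ± 0.295 CPM, and Hhip, an inhibitor of hedgehog ligands, fell from 2.86, 2.97, 3.15, 3.04 and 3.12 CPM on chow to 0.0931 to 0.654 CPM (median 0.302).

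Of 16 sinusoidal genes 4 rose and 7 fell (median -0.15), and on total counts 8 rose and 1 fell (median 0.39), so the balance of calls turned with the scaling. The summed level of sinusoidal genes was 1442 to 1874 CPM on chow and 1851 to 2248 CPM at 16 weeks. Kdr, a VEGF receptor, was at 78.9, 79.7, 72.6, 82.7 and 81.9 CPM on chow and at 28.5 to 55.2 CPM (median 34.9) at 16 weeks (log2 change -1.08, SE 0.14, adjusted p = 5.38e-06). Stab2 and Lyve1, scavenger receptors of sinusoids, were at 64.9 ± 6.58 and 63.5 ± 19 CPM and 16.3 ± 5.05 and 21.2 ± 6.08 CPM, neither called. Of 17 vascular genes 8 rose without overlap, 9 were not called and none fell (median 0.34), with Sele, E-selectin, from 0.186 ± 0.0991 to 1.53 ± 0.419 CPM and Cd34 from 4.76 ± 2.19 to 35 ± 6.52 CPM, while Pecam1 was at 37.8 ± 2.72 and 35.7 ± 3.92 CPM and not called. The difference between the endothelial lists was not tested.

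Cell cycle genes rose in 23 of 24 cases, 22 without overlap (background 26.9%; median 2.62). Mki67, present only in cycling cells, was at 3.17, 3.73, 3.8, 3.13 and 5.41 CPM on chow and at 12.1 to 37.9 CPM (median 22.7) at 16 weeks (log2 change 2.55, SE 0.28, adjusted p = 1.17e-06). Mitotic genes led the group: Cdc20, needed for chromosome separation, was at 1.02, 1.07, 0.832, 0.496 and 0.794 CPM on chow and at 11.5 to 41.6 CPM (median 15.8) at 16 weeks, and Ccnb1, cyclin B1, rose from 0.102 ± 0.0864 to 1.74 ± 0.885 CPM. The S-phase helicase subunits Mcm2, Mcm3, Mcm5 and Mcm6 rose by log2 changes of 0.64, 0.98, 1.17 and 1.28. Targets of p53 and senescence genes rose in 10 of 17 cases (median 0.67). Phlda3 rose from 1.24 ± 0.645 to 11.8 ± 2.96 CPM and Cdkn2a, a senescence marker, from 0.0759 ± 0.0612 to 0.503 ± 0.187 CPM. Cdkn1a, the p21 inhibitor, was at 29.8, 29.1, 30.4, 18.9 and 52.4 CPM on chow and at 38 to 78.8 CPM (median 46.5) at 16 weeks, called with overlapping groups (log2 change 0.68, adjusted p = 0.0151). Gdf15, a stress-induced hormone, was at 16.3, 6.02, 6.26, 41.8 and 48.3 CPM on chow and at 15.4 to 38.2 CPM (median 23.1) at 16 weeks and was not called (log2 difference 0.09, adjusted p = 0.866), the chow livers spreading wider than the 16-week livers. DNA damage and apoptosis genes rose in 10 of 15 cases, with the death receptor Tnfrsf10b from 0.24 ± 0.0874 to 1.68 ± 0.677 CPM and Gadd45b from 2.04 ± 0.692 to 11.3 ± 2.73 CPM.

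**Figure D4:**
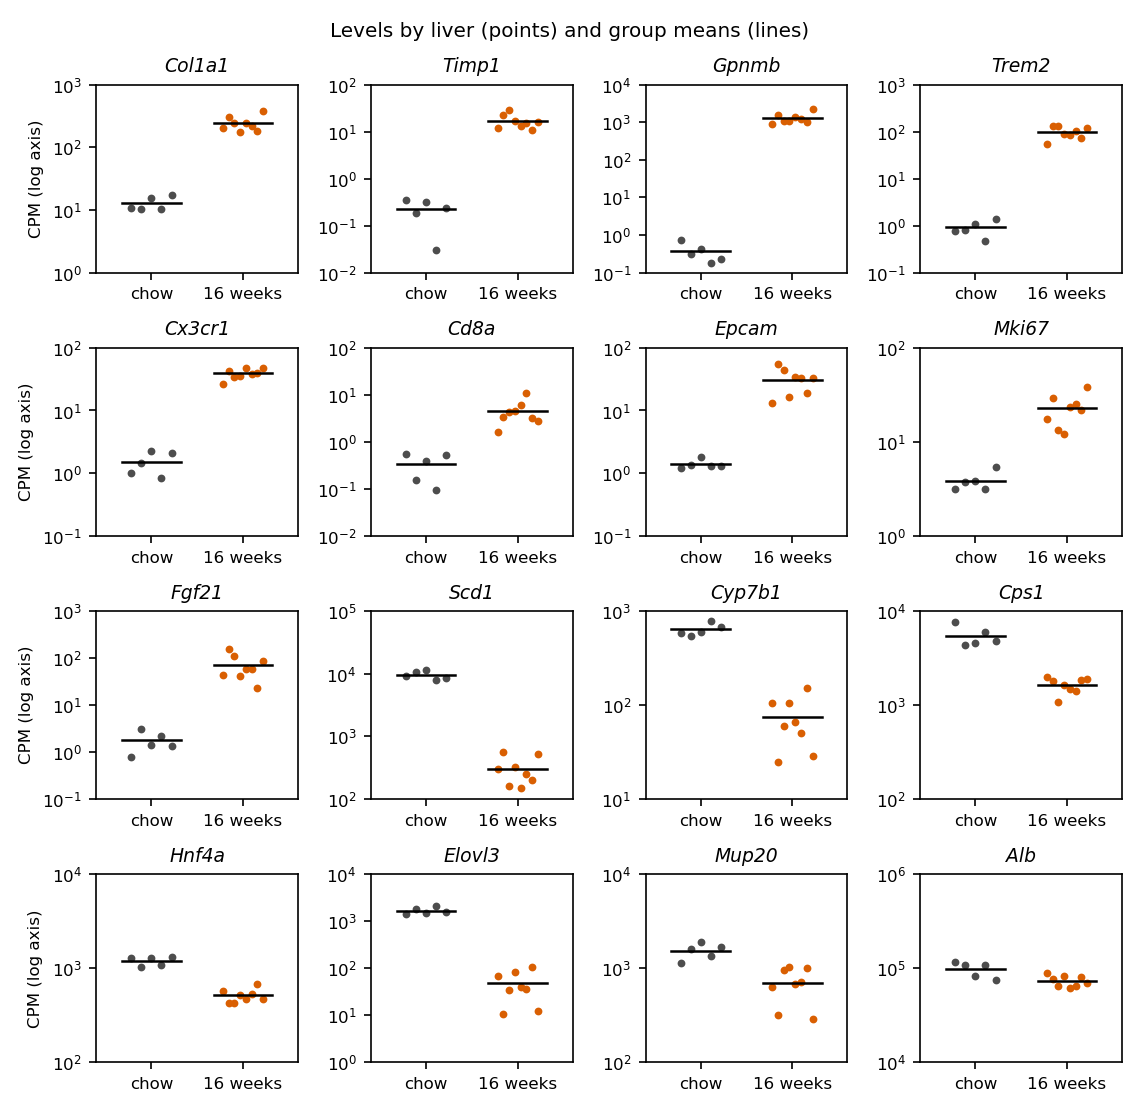
CPM of 16 genes in each chow (grey) and 16-week (orange) liver on log axes, with group means as lines. The groups overlap in Alb and in none of the other 15 genes.

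Fatty acid synthesis genes fell in 16 of 19 tested and rose in 2 (median -1.32). Scd1, the desaturase that makes monounsaturated fatty acids, was at 9345, 10724, 11511, 7811 and 8615 CPM on chow and at 149.7 to 559 CPM (median 277) at 16 weeks (log2 change -4.96, SE 0.32, adjusted p = 7.72e-09). Elovl3, a fatty acid elongase, was at 1394, 1824, 1534, 2103 and 1559 CPM on chow and at 10.5 to 105 CPM (median 38.1) at 16 weeks (log2 change -5.10, or -6.00 without replicates 1, 4 and 7). Fasn, fatty acid synthase, was at 401, 425, 359, 353 and 428 CPM on chow and at 70.3 to 170.5 CPM (median 145) at 16 weeks, and Thrsp, an activator of lipogenesis, fell from 208 ± 42.6 to 10.3 ± 6.78 CPM. The isoform Scd2, low in adult hepatocytes, rose instead, from 12 ± 1.96 to 46.7 ± 5.95 CPM. Lipid uptake and storage changed gene by gene. Fatty acid uptake and binding genes rose in 7 and fell in 7 of 17 cases (median -0.16, or 0.38 on total counts). These counts are near the shares over all genes, 35.8% and 34.9%. Cd36, a fatty acid transporter of macrophages and hepatocytes, was at 63.4, 82.7, 58.9, 65.8 and 69 CPM on chow and at 363 to 523 CPM (median 450.2) at 16 weeks (log2 change 2.72, SE 0.11, adjusted p = 2.18e-10), while Fabp1, the hepatocyte binding protein, fell from 3310 ± 754 to 1377 ± 328 CPM and Acsl1 from 2095 ± 414 to 467 ± 128 CPM. Triglyceride and lipid droplet genes fell in 10 and rose in 4 of 22 cases (median -0.39, or 0.15 on total counts). Cidec, a droplet fusion protein, was at 4.73, 15.9, 4.45, 5.34 and 5.32 CPM on chow and at 19.4 to 92 CPM (median 26.8) at 16 weeks, with replicate 2 of each group highest, and Fitm1 fell from 36.4 ± 17.2 to 10.6 ± 3.83 CPM.

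Of genes of fatty acid oxidation and PPAR-alpha, 4 rose and 12 fell among 23 (median -0.27, or 0.27 on total counts). Fgf21, a hormone of the stressed or fasting liver, was at 0.782, 3.06, 1.45, 2.2 and 1.35 CPM on chow and at 23.1 to 155 CPM (median 58.2) at 16 weeks (log2 change 5.34, SE 0.52, adjusted p = 3.96e-07), and Cyp4a31, an omega-hydroxylase, rose from 6.01 ± 1.93 to 24.1 ± 5.57 CPM. Ppara itself, the receptor that drives these genes, fell from 124 ± 22.1 to 46.5 ± 18.7 CPM, while Cpt1a, the gate of mitochondrial oxidation, was at 472 ± 26.4 and 446 ± 65.8 CPM and not called. Cholesterol synthesis and uptake genes fell in 10 and rose in 2 of 24 cases, and 12 were not called (median -0.30, or 0.24 on total counts). The 2 that rose both esterify cholesterol: Soat1, the macrophage form, from 6.71 ± 0.739 to 54.3 ± 11.5 CPM, and Soat2 from 34.8 ± 4.36 to 52.6 ± 6.01 CPM. Apolipoprotein and lipoprotein assembly genes fell in 14 of 20 cases (median -0.70), or in 9 with the 8-week livers in the fit. On total counts 5 rose and 5 fell (median -0.16). Of all genes above a mean of 1000 CPM 78.5% fell, with a median of -0.87, and this list did not exceed those values. Apob, the scaffold of very low density lipoprotein, was at 8153, 6914, 6926, 9472 and 8158 CPM on chow and at 1727 to 3406 CPM (median 2489.9) at 16 weeks (log2 change -1.68, SE 0.17, adjusted p = 6.56e-07), and Mttp, which loads it with lipid, fell from 463 ± 59.4 to 187 ± 19.6 CPM. Apoa4 rose, as given above.

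Bile acid genes fell in 20 of 25 cases, 17 without overlap, and rose in 2 (median -1.26, or -0.72 on total counts). Over all genes 24.6% were lower without overlap, but at 100 to 1000 CPM 834 of 1426 were. Cyp7a1, which limits the rate of classic bile acid synthesis, was at 109.7, 146, 108, 125 and 115 CPM on chow and at 89.3, 15.5, 40.1, 71.9, 58.7, 26, 74.9 and 30.9 CPM in 16-week replicates 1 to 8 (log2 change -1.24, SE 0.33, adjusted p = 0.00342). Its 3 highest 16-week values were in replicates 1, 4 and 7, and without them the log2 change was -1.84. Cyp7b1, of the alternative pathway, was at 587, 536, 599, 789 and 680.3 CPM on chow and at 25 to 152 CPM (median 62.8) at 16 weeks (log2 change -3.11, or -3.82 without those livers). The uptake transporters Slc10a1 and Slco1a1 fell from 605 ± 80.3 to 182 ± 56.9 CPM and from 673 ± 108 to 97 ± 82.7 CPM, and the export pump Abcb11 from 985 ± 108 to 412 ± 82 CPM. Slc51b, part of the basolateral exporter that cholestasis induces, rose from 0.193 ± 0.158 to 2.28 ± 1.57 CPM.

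Of 20 choline and phosphatidylcholine genes 7 rose, 9 fell and 4 were not called (median -0.19, or 0.35 on total counts), near the background shares of 35.8% and 34.9%. Pemt, which makes phosphatidylcholine without dietary choline, was at 353, 332, 339, 354 and 299 CPM on chow and at 204 to 410.2 CPM (median 302) at 16 weeks and was not called (log2 difference -0.17, adjusted p = 0.279), though on total counts it was called higher by 0.38 (adjusted p = 0.00873). Pcyt1b, an isoform of the choline pathway's rate-limiting enzyme, rose from 0.284 ± 0.0566 to 2.28 ± 0.938 CPM, Lpcat4, which remodels lysophospholipids, rose from 1.09 ± 0.177 to 5.76 ± 1.15 CPM, and Chpt1, the last enzyme of the choline pathway, fell from 335 ± 27.1 to 104 ± 20.5 CPM. Methionine cycle and transsulfuration genes fell in 18 of 22 cases (median -0.78). Csad, of taurine synthesis, was at 597, 1065, 816, 1015 and 658 CPM on chow and at 73.3 to 131 CPM (median 88.3) at 16 weeks, and Gnmt, which disposes of methyl groups, was at 3344, 1765, 1855, 1876 and 1728 CPM on chow and at 413 to 727 CPM (median 574) at 16 weeks. Mat1a, the adult methionine adenosyltransferase, fell from 3885 ± 965 to 1996 ± 249 CPM, and Mat2a, the form of dividing cells, was the 1 that rose, from 68.9 ± 9.84 to 137 ± 14.8 CPM. Urea cycle and amino acid breakdown genes fell in 25 of 28 tested and rose in none, 23 without overlap (median -1.18). Cps1, which opens the urea cycle, was at 7562, 4356, 4615, 5986 and 4840.1 CPM on chow and at 1081 to 2008 CPM (median 1716) at 16 weeks (log2 change -1.73, SE 0.16, adjusted p = 2.51e-07), Arg1, arginase, fell from 1804 ± 427 to 462 ± 101 CPM, and Hal, of histidine breakdown, from 651 ± 165 to 168 ± 59.4 CPM.

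Stress programmes went in different directions. Integrated stress response genes rose in 12 of 21 tested and fell in none (median 0.93). Slc7a11, the cystine transporter, was at 0.117, 0, 0.0724, 0 and 0.147 CPM on chow and at 3.65 to 7.9 CPM (median 6.53) at 16 weeks (log2 change 6.51, SE 0.42, adjusted p = 7.81e-09, or 7.10 without chow replicate 5). Trib3, a pseudokinase of the pathway, rose from 2.85 ± 0.985 to 72.2 ± 31.8 CPM, and Atf4, its central factor, was at 136 ± 8.17 and 142 ± 22.6 CPM and not called. Endoplasmic reticulum chaperones fell in 11 of 18 tested and rose in none (median -0.31), but the median was 0.24 on total counts and 7 were called lower with the 8-week livers in the fit. Herpud1, of protein disposal from the reticulum, fell from 391 ± 45.6 to 182 ± 46.8 CPM and Sel1l from 257 ± 20.1 to 130.4 ± 13.7 CPM. Targets of NRF2 and oxidant defence genes rose in 11 and fell in 9 of 23 cases, against 35.8% and 34.9% of all genes. Gpx3, a secreted glutathione peroxidase, rose from 8.76 ± 3.56 to 91.3 ± 29.7 CPM and the haem oxygenase Hmox1 from 47.4 ± 8.77 to 142 ± 20.7 CPM, while the superoxide dismutases Sod1 and Sod2 fell from 417 ± 35.1 to 230.5 ± 42 CPM and from 223 ± 8.32 to 120.2 ± 13.8 CPM. Lysosome and autophagy genes rose in 16 of 27 cases (median 0.45), among them Psap, given above, and Npc2, a carrier of cholesterol out of lysosomes, from 104 ± 8.48 to 287 ± 51.9 CPM.

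Genes of the differentiated hepatocyte were lower. Secreted plasma proteins fell in 15 of 18 tested and rose in none (median -0.80), 9 of them when the 20 most abundant genes, which include members, were left out. Of all genes above a mean of 1000 CPM, 78.5% fell, with a median of -0.87, and this list was near those values. Serpina3k, an antichymotrypsin-like serpin, fell from 16874 ± 2194 to 2624 ± 1031 CPM, and Serpina1d from 2471 ± 387 to 681 ± 129 CPM. Liver transcription factors fell in 16 of 22 tested and rose in 2 (median -0.78). Hnf4a, the main factor of hepatocyte identity, was at 1279.7, 1038, 1286, 1089 and 1306 CPM on chow and at 424 to 683 CPM (median 497) at 16 weeks (log2 change -1.22, SE 0.12, adjusted p = 3.12e-07), and Prox1 fell from 156 ± 36.9 to 63.8 ± 16.9 CPM. Periportal genes, those of hepatocytes near the inflowing blood, fell in 12 of 16 cases (median -1.42), with Cyp2f2 from 2144 ± 419 to 432 ± 134 CPM and the gluconeogenic G6pc from 1576 ± 611 to 208 ± 41.8 CPM. Pericentral genes, of hepatocytes near the outflow, fell in 3 and rose in 5 of 18 cases (median 0.03), or fell in 6 without replicates 1, 4 and 7. Without replicate 2 or without replicate 8, 8 and 7 rose. Those livers stood apart: the summed pericentral level was 3803 CPM in replicate 2, 4078 CPM in replicate 8, 9578 to 12014 CPM in the other 6 and 10278 to 13071 CPM on chow. The ammonium transporter Rhbg was at 13.2, 4.3, 20.2, 17, 13.5, 16.7, 15.6 and 4.99 CPM in replicates 1 to 8 and Cyp27a1 at 318, 136, 298, 331, 264, 260.2, 317 and 134 CPM, both lowest in replicates 2 and 8. As group means Rhbg rose from 2.23 ± 0.854 to 13.2 ± 5.71 CPM, glutamine synthetase (Glul) from 821 ± 203 to 1385 ± 532 CPM, and Cyp27a1 fell from 705 ± 75.1 to 257 ± 79.7 CPM. The difference between the zones was not tested.

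All 27 male-biased liver genes tested fell, each without overlap between the groups (background 24.6%; median -3.11). Their summed level was 36625 to 54100 CPM on chow and 3171 to 9384 CPM at 16 weeks. Mup20, a pheromone of male urine, fell least, from 1147, 1622, 1888, 1337 and 1683 CPM on chow to 288 to 1026 CPM (median 700.1) (log2 change -1.12, SE 0.28, adjusted p = 0.00233), and was not called on total counts (-0.60, adjusted p = 0.0552). Hsd3b5, a steroid dehydrogenase of male liver, fell from 296 ± 86.5 to 9.08 ± 12.3 CPM, and Cyp4a12a from 441 ± 177 to 44.4 ± 24.8 CPM. Of 22 female-biased genes listed 17 were tested, and 10 rose and 4 fell. Cyp3a41a, Sult2a1, Sult2a2, Sult3a1 and A1bg were too low to be tested. Of all genes 35.8% rose, of those at 1 to 10 CPM 48.3% and of those below 1 CPM 49.8%. With Cyp2b9 above, Hao2, a peroxisomal oxidase, rose from 0.0675 ± 0.0598 to 0.531 ± 0.292 CPM and Cyp2c69 fell from 0.636 ± 0.463 to 0.0718 ± 0.0341 CPM. Atp6v0d2, given above with the macrophage genes, is also 1 of the 10 that rose. In the growth hormone, IGF and insulin axis 10 genes fell and 5 rose of 21 (median -0.56, or -0.02 on total counts): the receptor Ghr fell from 813 ± 57.1 to 261 ± 79.6 CPM, Igf1 from 815 ± 123 to 333 ± 31.9 CPM and Irs2 from 137 ± 54 to 32.7 ± 8.87 CPM, Igfbp7, an IGF-binding protein of vessels and stroma, rose from 71.9 ± 5.29 to 331 ± 74.1 CPM, and Socs2, a growth hormone target, was at 19.2 ± 12.8 and 16.6 ± 5.11 CPM and not called.

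Drug metabolism genes fell in 26 of 29 tested and rose in 1 (median -1.26). The main cytochrome Cyp3a11 fell from 8539.7 ± 1876 to 1874 ± 363 CPM, and Gstm2, a glutathione transferase, was the 1 that rose, from 29.1 ± 1.63 to 90.4 ± 24 CPM. Glycolysis and gluconeogenesis genes fell in 11 and rose in 8 of 24 cases (median -0.26, or 0.28 on total counts), against 34.9% and 35.8% of all genes. The isoforms divided: Pkm, the pyruvate kinase of other tissues, rose from 5.21 ± 0.56 to 39.3 ± 7.74 CPM, and Pklr, that of liver, fell from 185 ± 57 to 73.9 ± 17.4 CPM. The hexokinases Hk1, Hk2 and Hk3 rose by log2 changes of 1.80, 1.87 and 2.90. Iron and haem genes fell in 8 and rose in 4 of 19 cases (median -0.03, or 0.50 on total counts), against the same shares. Alas1, the first enzyme of haem synthesis, fell from 649 ± 387 to 161 ± 44.9 CPM, and Id1, a BMP target, rose from 5.15 ± 1.39 to 18.9 ± 8.86 CPM. Circadian clock genes fell in 13 and rose in 4 of 18 cases (median -0.85): the repressor Nr1d1 was at 6.22, 8.74, 4.31, 4.84 and 3.44 CPM on chow and at 23.2 to 78.3 CPM (median 48.6) at 16 weeks, Bhlhe41 rose from 0.733 ± 0.239 to 11.7 ± 2.55 CPM, and the repressor Cry1 fell from 59.5 ± 7.12 to 14.8 ± 2.47 CPM. The time of day of collection is not given in the labels, and its part in these values was not tested. Immediate early genes rose in 7 and fell in 3 of 19 cases, against 35.8% and 34.9% of all genes, so their rises were near the background. Egr2 and Atf3 rose from 0.235, 0.245, 0.253, 1.46 and 0.617 CPM and 2.11, 2.35, 2.1, 11.9 and 4.06 CPM on chow to 11.3 to 18.8 CPM (median 14.5) and 47.7 to 96.1 CPM (median 67.1), with chow replicate 4 highest on chow and log2 changes of 5.38 and 4.69 without it, against 4.66 and 3.93 with it. Fos was at 45.8 ± 60.6 and 19.6 ± 14.2 CPM and not called.

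Gene families found by symbol across the genome were counted in the same way. Collagen chains rose in 27 of 35 cases, matrix metalloproteinases in 16 of 17, toll-like receptors in 11 of 12, keratins in 11 of 12, integrin chains in 19 of 25 and tubulins in 10 of 12, against 35.8% of all genes. The keratins include the squamous Krt13, highest in 16-week replicates 1, 4 and 7, beside the duct keratins Krt7 and Krt19. The part of other tissue in the keratin count was not tested. All 16 major urinary proteins fell (median -4.63), as did 16 of 17 UDP-glucuronosyltransferases (median -1.41) and 25 of 36 cytochromes of family 2 (median -1.22), against 34.9% of all genes. All 18 genes of the mitochondrial genome fell (median -1.17), and the genome's share of the counts was 4.59% ± 0.435 on chow and 2.8% ± 0.228 at 16 weeks (exact permutation test, adjusted p = 0.00311). mt-Cytb, of respiratory complex III, fell from 18435 ± 3226 to 7699.7 ± 814 CPM and mt-Nd2, of complex I, from 10265 ± 829 to 3632 ± 504 CPM. Nuclear genes of complex I fell in 27 of 38 tested and rose in none, with a median of -0.44 that was 0.10 on total counts. Cytosolic ribosomal proteins rose in 20 (30.3%) and fell in 1 of 66 cases (median 0.26), so rises were below the 35.8% over all genes. Mitochondrial ribosomal proteins rose in 3 and fell in 35 of 72 (median -0.20, or 0.34 on total counts). Vacuolar ATPase subunits, which acidify lysosomes, rose in 12 of 19 cases (median 0.44). Of 6 Y chromosome genes tested 4 fell, Ddx3y from 100.4 ± 6.37 to 49.1 ± 9.74 CPM and Uty from 19.9 ± 1.63 to 11.4 ± 2.25 CPM. Chromosomes 1 to 19 and X each had a median between -0.12 and 0.10.

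**Figure D5:**
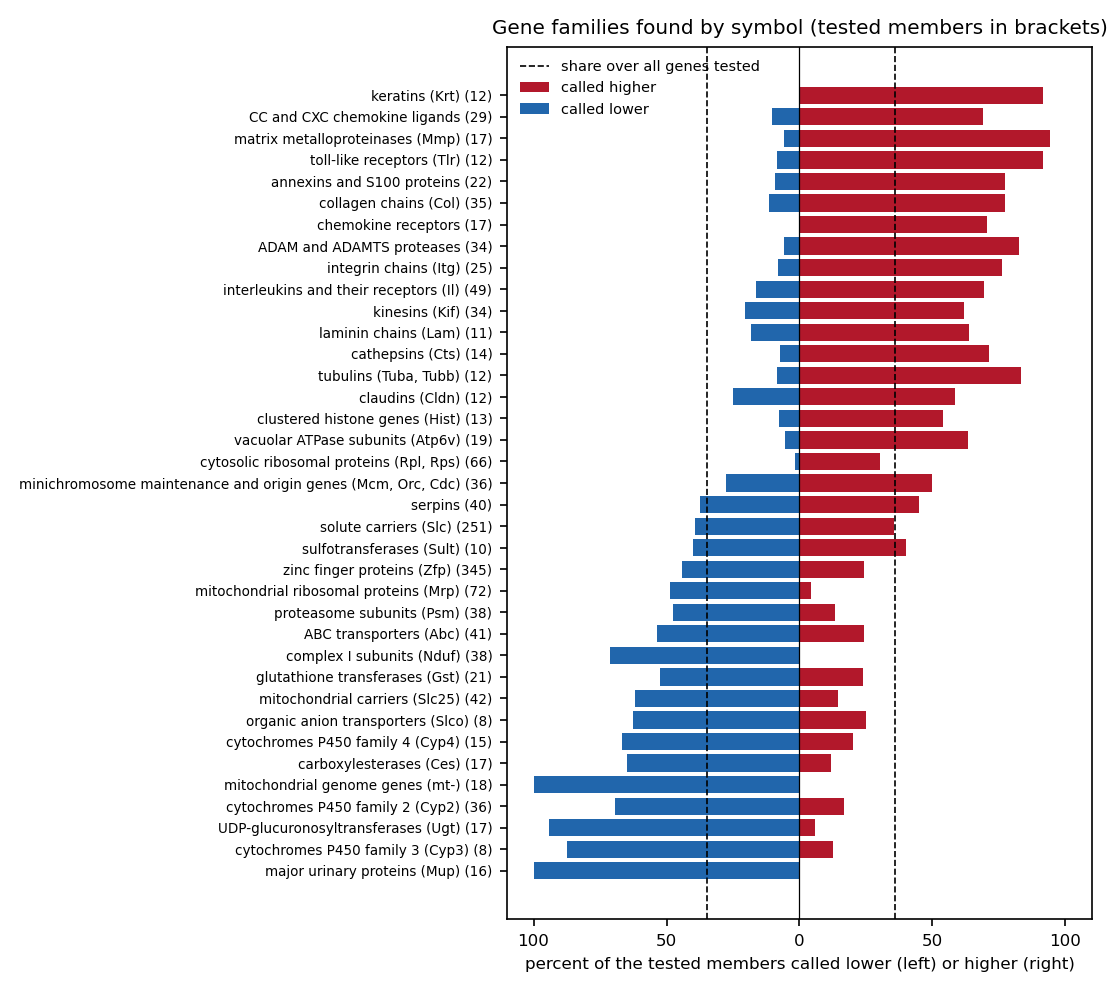
Percent of the tested members of 37 gene families called higher (red, right) or lower (blue, left), ordered by median log2 change, with dashed lines at the shares over all genes tested, 35.8% and 34.9%. Keratins, toll-like receptors and matrix metalloproteinases reach over 90% called higher, and major urinary proteins and genes of the mitochondrial genome are all called lower.

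The 8 livers of 16 weeks were compared among themselves through Col1a1. Over these 8 livers Pearson's r of log2(CPM + 1) between Col1a1 and Gpnmb was 0.89 (exact permutation p = 0.00357, adjusted over 6 relations 0.0214; Spearman's rho 0.79, permutation p = 0.0279, adjusted 0.0838), and 0.82 without replicates 8 and 4, the livers farthest from the median in Col1a1. For Mki67 r was 0.75 (exact permutation p = 0.0324, adjusted 0.0972; rho 0.79, permutation p = 0.0279) and 0.32 without the same livers, so the relation rests on them. For Epcam r was 0.70 (exact permutation p = 0.0541, adjusted 0.108; rho 0.67, p = 0.0831), or 0.87 without the same livers, and for Acta2 -0.64 (exact permutation p = 0.0879, adjusted 0.132; rho -0.57, p = 0.151), or -0.53 without them. For Scd1 r was 0.51 and for Cd8a -0.13 (exact permutation p = 0.197 and 0.761; rho 0.21 and -0.10, p = 0.619 and 0.84), or 0.44 and 0.17 without them. Of the 6, the relation with Gpnmb by Pearson's r alone passed after adjustment. Replicates 1, 4 and 7, with the most squamous and muscle transcripts, held the 3 lowest Col1a1 values, and the part of other tissue in these relations was not tested. Genes that varied most among these livers were Ighv10-3 (coefficient of variation 225%), Igkv10-96 (203%), Myh8 (155%) and Krt13 (147%), 2 immunoglobulin V genes, a muscle myosin and the squamous keratin. Ighv10-3 had 2 counts on chow and 2.58, 0.242, 0.0996, 54, 2.91, 4.84, 0.756 and 0.59 CPM in 16-week replicates 1 to 8, so 1 liver held most of it, and its log2 change of 9.01 was 6.78 without replicate 4. Igkv10-96 was likewise highest in replicate 4 and moved from 5.73 to 3.97 without it, or to 3.94 without replicates 1, 4 and 7. Of the genes changed at least 4-fold, those that varied least were Btc, betacellulin (2.63 ± 0.584 to 11.9 ± 0.755 CPM, coefficient of variation 6.37%), Susd2 (3.34 ± 0.815 to 14.4 ± 1.02 CPM, 7.07%), Tmem200b (1.36 ± 0.314 to 6.21 ± 0.454 CPM, 7.31%) and Mtmr11, a myotubularin-related protein (2 ± 0.432 to 29.6 ± 2.2 CPM, 7.43%). These 4 rose without overlap between the groups.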

How the data were processed

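Total RNA of mouse liver was prepared with a stranded total RNA library kit, per the labels' protocols. The authors deposited raw read counts per Ensembl gene, and GRCm38 is the build in the submitters' processing notes. No source used here names the aligner or counter. The deposited table held 52636 genes, of which 52489 (99.72%) matched an annotation entry.

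The 13 libraries of both groups were fitted alone, in R 4.3.3, with edgeR 4.0.16: genes were kept by filterByExpr with the group (16779 genes, holding over 99.9% of each library's counts), TMM factors were computed, and 16 weeks was tested against chow with glmQLFit and glmQLFTest. Calls were made at a p below 0.05 after Benjamini-Hochberg adjustment. The standard error (SE) is the log2 change divided by the root of the F statistic. On data simulated for this comparison over 16677 genes, 50.7% of 1.5-fold, 88.1% of 2-fold and 95.5% of 4-fold changes were recovered. The changed genes, 67, 67 and 66 of them, had at least 1 CPM and went up or down at random, and 16477 were unchanged. In the data 70.6% of genes were called, so these rates may not carry over. Library measures were compared by exact permutation tests over 13 livers, whose smallest two-sided p is 0.00155, computed in SciPy 1.17.1.

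Gene lists and tests were chosen with earlier results of these data known. Genes were named by rule: a panel of 28; the 12 largest rises and falls without overlap among genes of at least 5 CPM in the higher group; the 8 largest gains and losses in mean CPM; up to 2 leading members of each list; and the 4 most and least variable genes at 16 weeks. Other list members named were chosen after their values were seen, and some genes the rule picks are not reported here. Alternatives were DESeq2 1.42.0, DESeq2 size factors, total counts alone, other filters, all 21 livers, and leaving livers out singly or together. Intervals of ratios are exact and cover counting error only. Promoters came from RefSeq (GRCm38.p6).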

Additional observations from a re-analysis of the deposited data

Results flagged for a closer look

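In 35 of 346 checks the highest or lowest liver of a group lay apart from the others by Dixon's criterion at 95%, where chance gives about 1 in 20 for normally spread values. That rate does not hold for genes named as the most variable, or for Vsig8, Vmn2r3, Gzmk and Cxcl5 on chow, with counts in 1 chow liver alone. Of the 35, 10 were chow replicate 5.

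In chow replicate 5 the highest values of the group were 0.0294 CPM of Vmn2r3, 190 CPM of Lcn2, 0.0588 CPM of Gzmk, 6.06 CPM of Iglc1, 0.206 CPM of Cxcl5, 0.176 CPM of Lif, 2.26 CPM of Ly6d, 0.5 CPM of Myh4, 0.735 CPM of Igkv10-96 and 61.2 CPM of Myh8. Chow replicate 1 held the highest Vsig8 (0.0391 CPM), and Mup3 (7085 CPM), Slc51b (0.469 CPM), Gnmt (3344 CPM) and Arg1 (2551 CPM) also lay apart there. Chow replicate 2 lay apart in Cidec (15.9 CPM), chow replicate 3 in Epcam (1.85 CPM), and chow replicate 4 in Cyp2f2 (2869 CPM) and Atf3 (11.9 CPM).

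At 16 weeks, replicate 4 lay apart in Ighv10-3 (54 CPM), Igkv10-96 (68.6 CPM), Saa1 (164.5 CPM), Saa2 (109.7 CPM) and Myh4 (15 CPM). Replicate 2 lay apart in Apoa4 (7700 CPM), Birc5 (16.6 CPM), Cdc20 (41.6 CPM), Cidec (92 CPM), Fabp4 (61 CPM) and, as the lowest liver, Susd2 (12.1 CPM). Replicate 6 was highest in Cd8a (10.8 CPM), replicate 1 in Moxd1 (0.336 CPM), replicate 7 in Dct (0.265 CPM) and replicate 8 in Oasl2 (65.8 CPM). Replicate 3 had the lowest total count of its group, 35254088.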

How the results depend on the processing

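The number of genes called was 8873 with all 21 livers in the fit, 9936 with genes below a mean of 1 CPM left out, and 11200 to 12934 under the other settings run, and no gene called both ways changed direction except on total counts alone. On total counts alone 10762 genes were called higher and 1897 lower, 524 of the latter by at least 2-fold, and with all 21 livers 3847 were called lower. The total count per library differed between the groups by 6549300 counts, with leave-one-out values from 5329600 to 7934500. The exact permutation p was 0.0727 without chow replicate 1 and without chow replicate 3. The correlation of Col1a1 with Cd8a over 8 livers changed sign to 0.03 on total counts. Pemt moved to 0.38 and Alb to 0.13 on total counts. Gdf15, not called, moved to -0.02 without 16-week replicate 2 or chow replicate 1 and to -0.16 without chow replicate 2 or 3, and was 0.52 without chow replicate 5. Myh8, not called with all 13 livers, was called in opposite directions when livers were left out. It was -3.81 (called lower, edgeR adjusted p = 0.0328) without 16-week replicates 1, 4 and 7. Without chow replicate 5, which held 61.2 CPM, it was 4.49 (called higher). Myh8 was -0.71 and -0.30 without 16-week replicate 1 or 7, and -0.16 to -0.21 without chow replicates 1 to 4 in turn. The cause of these changes was not tested. No paired analysis was possible because the labels give the livers of both groups no shared number. Depth limits the precision of genes with a few counts on chow.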
